A study of Homo sapiens with 6 samples.

Results

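The genes described here carry the symbols of the translation initiation and elongation factors. These factors bring ribosomes to an mRNA, set them on the start codon and move them along it. Some of the genes instead encode inhibitors, a kinase, methyltransferases or other proteins, and "factors" in the counts below takes in all of the genes. They were taken from the deposited expression table by symbol: all rows beginning with EIF1 to EIF6, EEF1 or EEF2, without 2 pseudogenes, 2 antisense or divergent transcripts and 5 EIF2AK rows, which are protein kinases. This gave 62 of the 16659 genes used. EIF4EBP1, EIF4EBP2 and EIF4EBP3 end in P and a digit but are protein-coding, so they were kept, and the main counts are also given without them.

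RNA was sequenced from HepaRG, a human liver tumour line of hepatic stem cells by its label, in 3 wild-type libraries (the control) and 3 libraries labelled as a functional knockout of PXR. PXR, the pregnane X receptor encoded by NR1I2, is a nuclear receptor that senses drugs and bile acids. None of the cells was treated with a drug, and how the knockout was made, and whether it is 1 clone, is not given in the sources used here. Nor do the labels say that libraries came from separate cultures, so p-values measure only the spread between these libraries, which may be technical.

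Levels are in scaled CPM, estimated reads relative to a scaled library size, over 11359209 to 20945994 estimated reads in wild-type libraries and 28154914 to 33393110 in knockout libraries. NR1I2 RNA was at 8.24, 7.04 and 7.60 scaled CPM in wild type and at 13.1, 13.4 and 14.3 in the knockout, which says nothing about a lesion that leaves the transcript in place. "Knockout" below means the libraries with that label. Of 10 hepatocyte markers, 9 were in the table and all 9 were higher in the knockout; their summed level was 2226 to 2299 scaled CPM in wild type and 42984 to 44186 in the knockout, with AHSG at 0 in wild-type library 1. Markers of other cell types did not move together within a list, and each sum was carried by 1 gene. Summed bile duct markers (3 of 4 in the table) ranged from 118 to 121 in wild type and 331 to 354 in the knockout, with KRT19 and SOX9 higher and KRT7 lower. Leukocyte markers (2 of 4) ranged from 11.4 to 14.9 and 20.05 to 20.9, with CD68 higher and CD14 lower. Endothelial markers (2 of 4) ranged from 54.8 to 55.1 and 215 to 222, with KDR higher and PECAM1 lower. Stellate cell markers (4 of 4) ranged from 85.3 to 89.2 and 337 to 354, with DCN and COL1A1 higher and PDGFRB and DES lower (log2 changes 2.40, 0.82, -1.45 and -3.50). The part of these differences in the results below was not tested, and in bulk RNA fewer cells of a type and less RNA per cell cannot be told apart.

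Initiation starts when eIF2 delivers the initiator tRNA to the small ribosomal subunit together with eIF1, eIF1A, eIF3 and eIF5, while the eIF4 factors recognise the mRNA cap and unwind the leader so that the complex can scan to the start codon. In elongation, eEF1A brings aminoacyl-tRNAs, the eEF1B complex recharges eEF1A with GTP, and eEF2 moves the ribosome on by a codon. The mRNAs of many of these factors begin with a C followed by a run of pyrimidines, the terminal oligopyrimidine (TOP) motif, through which growth signals by way of mTOR and LARP1 set how well they are translated.

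The letters at the transcription start are shown first, since this motif is a known feature of the group and was not used to choose the genes. Each line gives 10 bases before the start and 20 bases from it on, 5′ to 3′ on the gene's strand, from RefSeq on GRCh38.p14. Capitals mark a run that begins with C at the start itself and holds at least 5 pyrimidines (C or T, in the gene's direction only). The first 9 genes have such a run; EIF4EBP2 and EIF3C, shown for contrast, do not.
EEF1A1 (chr6:73521013-73521042, minus strand): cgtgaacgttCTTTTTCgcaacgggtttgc
EEF1B2 (chr2:206159885-206159914, plus strand): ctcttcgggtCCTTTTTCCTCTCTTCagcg
EEF2 (chr19:3985444-3985473, minus strand): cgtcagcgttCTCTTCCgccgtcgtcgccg
EIF2S3 (chrX:24054946-24054975, plus strand): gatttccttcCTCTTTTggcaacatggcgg
EIF3D (chr22:36529147-36529176, minus strand): cgcatgtttcCTCTTTTCCTggtttctcaa
EIF3F (chr11:7987327-7987356, plus strand): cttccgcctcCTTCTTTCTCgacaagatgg
EIF3K (chr19:38619178-38619207, plus strand): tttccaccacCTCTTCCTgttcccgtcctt
EIF4A2 (chr3:186783567-186783596, plus strand): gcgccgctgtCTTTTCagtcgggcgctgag
EIF4B (chr12:53006446-53006475, plus strand): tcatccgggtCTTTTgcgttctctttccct
EIF4EBP2 (chr10:70404135-70404164, plus strand): gccttcgcccgcttccggtcgtcgtcgtcg
EIF3C (chr16:28688548-28688577, plus strand): tcccacccccgtggcaggcagccctgcacc

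A RefSeq promoter entry was matched for 48 of the 62 genes, and 13 of these (27.1%) have the run at a listed start. Counted the same way by gene, 807 of the 11129 tested genes with an entry (7.25%) have it. So do 1404 of all 27305 genes with an entry (5.14%), and by promoter 1429 of 35116 (4.07%). The other 4 factors with a run are EIF2A, EIF2D, EIF3M and EIF2S3B. Among the 13, EEF1B2 and EIF2S3B also have a listed start without it. A match is a description of the letters, not of regulation, and a listed start need not be the one these cells use.

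The RNA of most of these factors was lower in the knockout. Of the 62 genes, 45 were lower and 8 higher by limma (adjusted p under 0.05 over all genes), and 9 did not pass. Over all 16219 genes tested, 39.6% were lower, 40.3% were higher and 79.9% passed in either direction, so 72.6% of the factors against 39.6% of all genes were called lower. The median log2 change of the factors was -0.36, against 0.01 over all genes, and ran from -1.88 (EIF3L) to 0.64 (EIF4G2). Changes are knockout minus wild type on the log2(scaled CPM + 0.5) scale with their standard error (SE), which understates changes of low genes. The 3 libraries of each group did not overlap for 8 genes with the knockout above and 47 with it below, and overlapped for 7. Over all 16219 genes the counts were 6620 above and 6487 below, or 80.8% in either direction. A lack of overlap was thus common among all genes. All 62 genes passed the filter on low values. Without EIF4EBP1 to EIF4EBP3 the counts were 43 lower and 7 higher of 59. EIF3CL, EIF2S3B, EEF1G, EIF4EBP3, EIF3L and EIF4A1 share exons with another gene or have a near-identical copy. Without them 40 of 56 were lower and 7 higher, with a median of -0.29. By at least 2-fold, 4 of these 56 were lower, against 8 of all 62.

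The factors together summed to 26587 ± 496 scaled CPM (SD, n = 3) in wild type and 21889 ± 234 in the knockout, or 2.78% to 2.86% and 2.08% to 2.13% of the whole signal. The direction of weak rises depends on the scaling between libraries. With each library scaled to an equal sum, the median of all genes moved to -0.12, 51 factors were lower and 4 higher, and all 45 genes called lower kept that call. For 12 of them, with changes of -0.27 to -0.09, the change grew by over 1.5 times, to between -0.41 and -0.23; the rises of EIF3F and EIF4E3 shrank to 0.24 and 0.25. With equal sums taken without small RNA genes, the all-gene split moved from 6534 higher and 6426 lower to 5229 and 7902. The 4 rises that held in all 16 alternatives fitted to the whole table were EIF4G2, EIF4EBP2, EIF3F and EIF4E3.

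**Figure D1:**
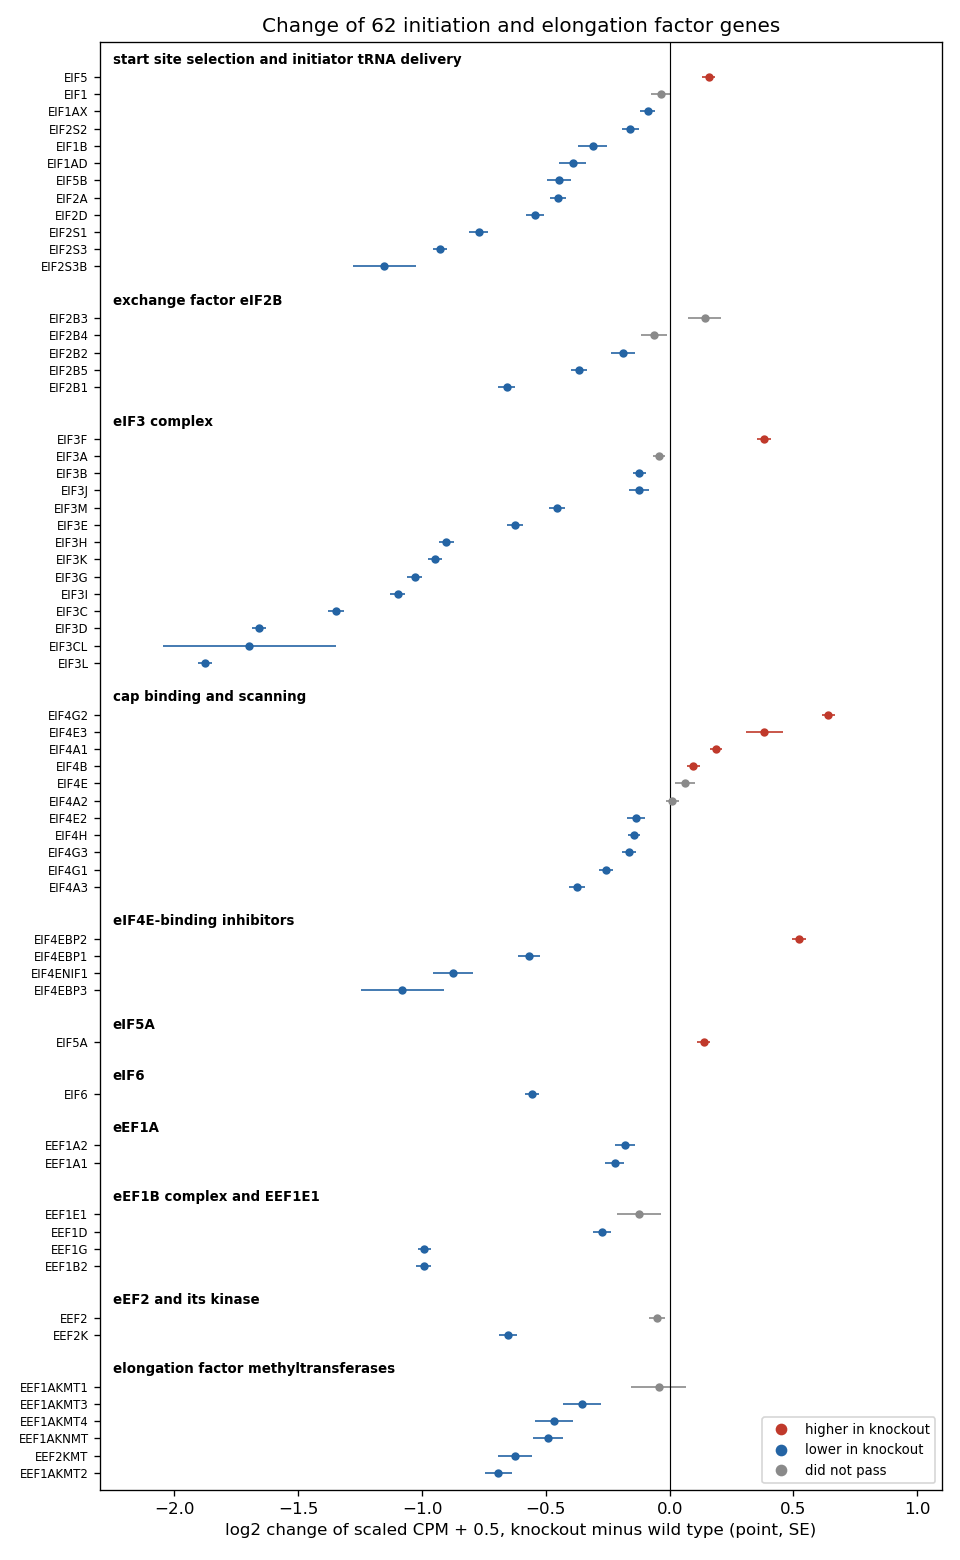
Log2 change of each of the 62 genes, knockout minus wild type (x axis), grouped by role; points are the fitted changes and bars their SE over 3 libraries a group. Most points lie left of 0, with EIF3L farthest left at -1.88 and EIF4G2 farthest right at 0.64.

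The 12 genes grouped under start site selection and initiator tRNA delivery include EIF1AD, which is counted here for its symbol. Of the 12, 10 were lower (83.3%), 1 was higher (8.3%) and 1 did not pass, with a median change of -0.42. Of all genes tested, 39.6% were lower and 40.3% higher. The eIF2 subunits moved unequally. EIF2S1 encodes eIF2α, whose phosphorylation holds back initiation under stress; it was at 141, 157 and 155 scaled CPM in wild type and at 89.5, 87.4 and 87.3 in the knockout, a log2 change of -0.77 (SE 0.039, adjusted p = 1.8e-10). EIF2S3 encodes eIF2γ, the GTP-binding subunit; it stood at 878, 901 and 902 in wild type and at 486, 458 and 465 in the knockout (log2 change -0.93, SE 0.028, adjusted p = 7.1e-13). For both genes every knockout library lay well below every wild-type library. EIF2S2, which encodes eIF2β, changed by -0.16 (127 ± 5.21 against 113 ± 2.56 scaled CPM, SD, n = 3), and by -0.05 relative to the median of its chromosome (adjusted p = 0.16). EIF2S3B, a near-copy of EIF2S3 on chromosome 12, was at 3.48, 3.43 and 3.86 against 1.21, 1.31 and 1.51; reads of this pair cannot be told apart with certainty, and their sum changed by -0.93.

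EIF5 encodes the protein that makes eIF2 hydrolyse its GTP at the start codon and was the only member of this role called higher, at 268, 277 and 275 scaled CPM against 305, 300.2 and 309 (log2 change 0.16, adjusted p = 6.3e-05). Its groups did not overlap, but with equal library sums the change was 0.02 (adjusted p = 0.51). EIF1, which guards start codon choice, had 190.3, 169 and 175 in wild type and 169, 173 and 179 in the knockout, and the groups overlapped (adjusted p = 0.40). EIF1 was called lower with equal library sums (-0.17), with quantile normalization (-0.15) and relative to the median of its chromosome (-0.10). The non-canonical initiator tRNA carriers EIF2D (-0.54) and EIF2A (-0.45) and the subunit-joining GTPase EIF5B (-0.44) were lower too, as were EIF1AD (-0.39) and EIF1B (-0.31). EIF1AX, one of the genes for eIF1A, had a small change of -0.09 whose call was lost without wild-type library 3 (-0.07, adjusted p = 0.093) and without knockout library 2 (-0.07, adjusted p = 0.081).

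The exchange factor eIF2B reloads eIF2 with GTP. Of its 5 subunit genes 3 were lower (60%), 2 did not pass and none was higher. Of all genes tested, 39.6% were lower and 79.9% passed in either direction. The regulatory α subunit gene EIF2B1 showed the largest change, from 93.8, 95.4 and 97.4 scaled CPM to 59.9, 59.2 and 61.99 (log2 change -0.66, SE 0.033, adjusted p = 2e-10), with no overlap; relative to the median of chromosome 12 the change was -0.99. EIF2B5, the catalytic ε subunit, changed by -0.37 and EIF2B2 (β) by -0.19. EIF2B4 (δ) was at 24.6 ± 0.812 against 23.5 ± 0.266 scaled CPM (SD, n = 3) and EIF2B3 (γ) at 20.2 ± 1.22 against 22.4 ± 1.52, and neither passed. With equal library sums EIF2B4 was called lower (-0.20, adjusted p = 0.0029). Without wild-type library 3 or knockout library 2 EIF2B3 was called higher (0.19, adjusted p = 0.027, and 0.19, adjusted p = 0.024).

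The 14 genes of eIF3, the largest initiation factor and the platform on which the preinitiation complex assembles, had the lowest median change among the roles with at least 5 genes, -0.93. Of these, 12 were lower (85.7%, against 39.6% of all genes tested), 1 was higher and 1 did not pass. By at least 2-fold, 6 of the 14 were lower, as were 10.1% of all genes tested. Both EIF3C and its near-identical copy EIF3CL are counted among the 6. The summed level of all 14 was 4293 ± 37.1 scaled CPM (SD, n = 3) in wild type and 2521 ± 8.41 in the knockout. EIF3L (ENSG00000100129.18, chr22:37848868-37889407, GRCh38) was at 357, 360.2 and 370.4 scaled CPM in wild type and at 98.7, 101 and 95.3 in the knockout, 3.69-fold lower (log2 change -1.88, SE 0.029, adjusted p = 7.2e-16). EIF3D (ENSG00000100353.18, chr22:36510850-36529436), whose protein can itself bind the cap of some mRNAs, went from 359, 373 and 373 to 115, 117 and 116 (log2 change -1.66, SE 0.027, adjusted p = 1.0e-15). The lowest wild-type library was thus far above the highest knockout library for both.

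EIF3L and EIF3D lie on chromosome 22, whose 377 tested genes had a median log2 change of -0.77, the lowest of any chromosome. Relative to that median EIF3L was still lower by -1.10 and EIF3D by -0.88. Over the 59 factor genes on other chromosomes the counts were 42 lower and 8 higher, with a median of -0.31. EIF3L also shares 41.1% of its exon bases with AL022311.1, and summed with it the change was -1.81.

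EIF3C, a core subunit gene, was at 897, 821 and 839 scaled CPM in wild type and at 329, 330.2 and 345 in the knockout (log2 change -1.35, SE 0.034, adjusted p = 9.5e-14). Its near-identical copy EIF3CL was at 16.1, 32.1 and 41.0 against 9.99, 13.4 and 4.01, with the largest SE of the complex (log2 change -1.70, SE 0.35), and the pair's reads cannot be told apart with certainty; summed, they changed by -1.36. The WD-repeat subunit gene EIF3I was at 303, 307 and 304 against 137, 143 and 146 (-1.10). EIF3G, the RNA-binding subunit that contacts it, changed by -1.03, EIF3K by -0.95, EIF3H by -0.90, EIF3E by -0.62 and EIF3M by -0.46.

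The scaffold genes EIF3A and EIF3B had small changes. EIF3A, the largest subunit, was at 431, 445 and 448 scaled CPM in wild type and at 431, 429 and 426 in the knockout (log2 change -0.04, adjusted p = 0.13), and EIF3B, the other scaffold, changed by -0.12 (294 ± 4.04 against 270.0 ± 3.87, SD, n = 3). EIF3B lies on chromosome 7, whose median change was 0.43, and relative to that median it was lower by more (-0.55). EIF3A passed, as lower, without wild-type library 1 (-0.06, adjusted p = 0.038) and with equal library sums (-0.18). EIF3J, a loosely bound subunit, changed by -0.12, a call lost without wild-type library 3 (-0.10, adjusted p = 0.061) and without knockout library 3 (-0.10, adjusted p = 0.058). EIF3F, a subunit of the MPN domain family like EIF3H, was the only eIF3 gene called higher, at 173, 178 and 174 against 228, 224 and 232 (log2 change 0.38, SE 0.027, adjusted p = 8.5e-09), so its knockout libraries all stood above its wild-type libraries. Per kilobase of transcript, wild-type levels ran from 9.69 (EIF3CL) to 334 scaled CPM (EIF3K).

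**Figure D2:**
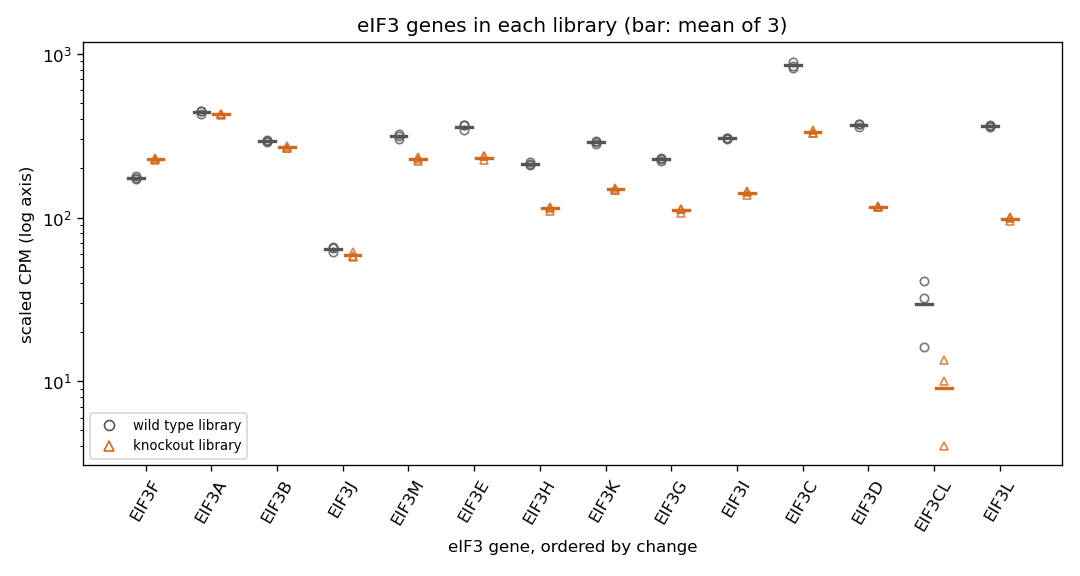
Level of each eIF3 gene in scaled CPM on a log axis, in 3 wild-type libraries (grey circles) and 3 knockout libraries (orange triangles), with a bar at each mean; genes are ordered by change. EIF3F stands higher in the knockout, EIF3A lies close in both groups, and the gap widens to EIF3L at the right.

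The 11 genes of cap binding and scanning were split, with 4 higher (36.4%), 5 lower (45.5%) and 2 that did not pass, and a median change of 0.01. These shares and the median are near those of all genes tested (40.3% higher, 39.6% lower, median 0.01). EIF4G2 (ENSG00000110321.17, chr11:10797050-10809110), an eIF4G relative that lacks the eIF4E-binding region and serves initiation without eIF4E, had the largest rise of all 62 genes. It was at 576, 577 and 581 scaled CPM in wild type and at 916, 885 and 905 in the knockout, 1.56-fold higher (log2 change 0.64, SE 0.025, adjusted p = 9.1e-12). The scaffold EIF4G1, which bridges the cap and the ribosome, was lower, from 717, 703 and 729.5 to 582, 599 and 616 (log2 change -0.26, adjusted p = 8.5e-07), and EIF4G3 changed by -0.16. The groups of none of these 3 genes overlapped.

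The helicase gene EIF4A1 was at 519, 543 and 533 scaled CPM against 603, 602 and 609 (log2 change 0.19, adjusted p = 1.0e-05), and with equal library sums at a change of 0.05 (adjusted p = 0.089). It shares exons with SENP3-EIF4A1 and AC016876.2, and summed with them it changed by 0.18. EIF4A2, its close relative, was at 424, 442 and 428 against 433, 439 and 431, with overlapping groups (adjusted p = 0.72); its change turned to -0.13 with equal library sums. EIF4A3, a paralog of the exon junction complex, was lower (-0.37). EIF4B, which stimulates eIF4A, was at 939.9, 959.9 and 968 against 1032, 998 and 1033 (log2 change 0.09, adjusted p = 0.0044), a direction that turned to -0.04 with equal library sums, -0.06 with quantile normalization and -0.24 relative to the median of its chromosome; the related EIF4H changed by -0.14, and by -0.57 relative to the median of chromosome 7.

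The cap-binding protein gene EIF4E was at 71.0, 76.5 and 79.4 scaled CPM against 79.7, 77.0 and 80.1 and did not pass (adjusted p = 0.17). Of its relatives, EIF4E3 was at 10.7, 11.4 and 12.5 against 15.4, 14.7 and 15.4 (log2 change 0.38, adjusted p = 3.1e-04), without overlap, and EIF4E2, the cap binder of a translational repressor complex, changed by -0.14, or -0.07 relative to the median of its chromosome (adjusted p = 0.074).

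Among the 4 eIF4E-binding genes, 3 were lower (75%) and 1 higher (25%), against 39.6% and 40.3% of all genes tested. The 4E-binding proteins compete with eIF4G for eIF4E until mTOR phosphorylates them. EIF4EBP1 was at 50.04, 50.1 and 54.1 scaled CPM in wild type and at 33.7, 35.04 and 34.7 in the knockout (log2 change -0.57, SE 0.044, adjusted p = 2.1e-08). EIF4EBP2 moved the other way, from 167, 174 and 172 to 248, 241 and 248 (log2 change 0.52, SE 0.027, adjusted p = 2.7e-10). These opposite changes were larger than the spread between libraries in both genes. EIF4ENIF1, the eIF4E transporter, was at 16.8, 17.2 and 18.0 against 9.89, 9.59 and 8.25 (-0.88, adjusted p = 1.6e-07); it lies on chromosome 22, and relative to that chromosome's median its change was -0.10 (adjusted p = 0.22). EIF4EBP3 was at 4.72, 4.28 and 2.91 against 1.94, 1.46 and 1.39 (-1.08, adjusted p = 3.7e-05), but 73.4% of its exon bases are shared with ANKHD1-EIF4EBP3, and summed with it the change was 0.10 (adjusted p = 0.23).

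EIF5A, whose hypusine-bearing protein helps ribosomes through difficult peptide bonds, was at 185, 179 and 183 scaled CPM against 201, 201 and 199.7 (log2 change 0.14, adjusted p = 2.3e-04); with equal library sums its change was 0.00 (adjusted p = 0.99), and relative to the median of its chromosome 0.07. EIF6 keeps free large subunits from joining small ones. It was at 179, 179.6 and 182 against 120.4, 121 and 126 (log2 change -0.56, SE 0.028, adjusted p = 2.3e-10), with no overlap.

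Of the 14 genes with EEF symbols, 11 were lower (78.6%), 3 did not pass and none was higher. Of all genes tested, 39.6% were lower and 40.3% higher. The 14 include the kinase gene EEF2K, EEF1E1 and 6 methyltransferase genes, which do not encode elongation factors themselves. EEF1A1 (ENSG00000156508.18, chr6:73515750-73523797) was the most abundant factor, at 9776, 10438 and 10366 scaled CPM in wild type and at 8832, 8569 and 8798 in the knockout (log2 change -0.22, SE 0.039, adjusted p = 1.1e-04), without overlap. Its change was larger with equal library sums (-0.36) and with quantile normalization (-0.66). Per kilobase of transcript its wild-type mean was 4426 scaled CPM, against 954 for EEF1G and 890 for EEF2. EEF1A2, the form of muscle and brain, was at 73.5, 69.7 and 73.7 against 60.6, 65.0 and 65.5 (-0.18, adjusted p = 7.8e-04); relative to the median of its chromosome the change was -0.08 (adjusted p = 0.086).

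All 3 eEF1B subunit genes were lower, as were 39.6% of all genes tested. EEF1B2, the α subunit that exchanges the nucleotide on eEF1A, was at 392.1, 410.0 and 413 scaled CPM in wild type and at 209, 201 and 199 in the knockout (log2 change -0.99, SE 0.029, adjusted p = 5.8e-13). EEF1G, the γ subunit that anchors the complex, was at 1431, 1454 and 1473 against 732, 719.8 and 741 (log2 change -0.99, SE 0.025, adjusted p = 1.3e-13). In both genes the knockout libraries lay far below the wild-type libraries, and EEF1G was 1.99-fold lower. Nearly all exon bases of EEF1G (99.9%) also belong to AP002990.1, and the 2 summed changed by -0.96. EEF1D, the δ subunit, changed by -0.27, and EEF1E1, which despite its symbol encodes a scaffold protein of the tRNA synthetase complex, did not pass (10.02 ± 0.907 against 9.13 ± 0.563 scaled CPM, SD, n = 3). With equal library sums EEF1E1 was called lower (-0.26, adjusted p = 0.016). The 3 eEF1B subunit genes summed to 2062 ± 38.2 in wild type and to 1103 ± 4.22 in the knockout.

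EEF2 was at 2821, 2762 and 2861 scaled CPM against 2613, 2729 and 2813, with overlapping groups (log2 change -0.05, adjusted p = 0.17); it was called lower with equal library sums (-0.19), with quantile normalization (-0.46) and relative to the median of its chromosome (-0.10). EEF2K, the kinase that phosphorylates and inactivates eEF2, was at 78.5, 75.6 and 76.5 against 48.6, 50.4 and 47.1 (log2 change -0.65, SE 0.037, adjusted p = 7.4e-10), all knockout libraries being below all wild-type libraries. Of the 6 genes for methyltransferases that modify eEF1A or eEF2, 5 were lower (83.3%, against 39.6% of all genes tested). EEF1AKMT2 went from 25.2, 26.1 and 24.8 to 15.4, 15.4 and 15.7 (-0.69, adjusted p = 3.3e-08), without overlap. EEF2KMT went from 17.0, 18.0 and 17.6 to 10.5, 11.6 and 11.6 (-0.62, adjusted p = 1.2e-06), also without overlap. EEF1AKNMT changed by -0.49, EEF1AKMT4 by -0.47 and EEF1AKMT3 by -0.35 (-0.69 relative to the median of chromosome 12), and EEF1AKMT1 did not pass.

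The balance between relatives was compared as the share of one gene in the sum of its family, per kilobase of transcript. For 6 families an exact two-sided permutation test was run; 3 against 3 libraries cannot go below p = 0.10. EIF4EBP2 made up 31.9%, 32.7% and 30.8% of EIF4EBP1 plus EIF4EBP2 in wild type and 50.8%, 49.2% and 50.1% in the knockout, 18.2 percentage points more. EIF4E3 went from 2.67% ± 0.184 (SD, n = 3) to 3.73% ± 0.0697 of the EIF4E family, EIF4A2 went from 42.6% ± 0.211 to 39.7% ± 0.345 of EIF4A1 plus EIF4A2, and EIF1B from 21.1% ± 0.545 to 18.0% ± 0.440 of EIF1 plus EIF1B. EIF4G3 made up 13.3% ± 0.275 and 14.1% ± 0.340 of EIF4G1 plus EIF4G3. Without the division by length the differences were 10.8 points for EIF4EBP2, 2.39 for EIF4E3 and -1.69 for EIF1B, so their size depends on the lengths used. In these 5 families the groups did not overlap (exact permutation p = 0.10, the smallest possible; Benjamini-Hochberg adjusted over 6, 0.12), so none passes a threshold. The share of EEF1A2 in EEF1A1 plus EEF1A2 was 0.805% ± 0.0468 against 0.828% ± 0.0432, with overlap (exact permutation p = 0.60, adjusted 0.60).

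**Figure D3:**
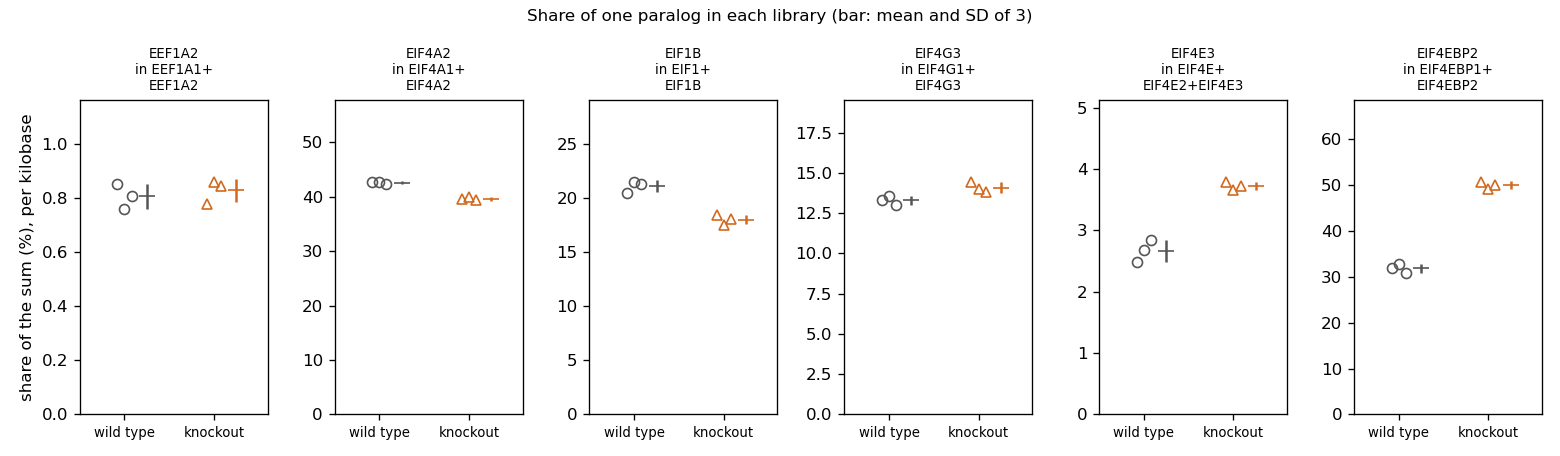
Share (%) of one gene in the per-kilobase sum of its family, in 3 wild-type libraries (grey circles) and 3 knockout libraries (orange triangles), with the mean and SD beside them; each panel has its own axis from 0. The groups are apart in 5 of 6 panels, by 18.2 points for EIF4EBP2, and overlap for EEF1A2.

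The changes were then set against the letters at the start. Of the 13 genes with a run, 9 were lower, 2 higher (EIF3F and EIF4B) and 2 did not pass (EEF2 and EIF4A2), with a median of -0.46. Of the 35 with an entry and no run, 24 were lower and 6 higher, with a median of -0.19, and of the 14 with no entry 12 were lower and none higher (median -0.53). Among the 11139 tested rows with a promoter entry, in which 11129 symbols occur, the median was -0.10 for the 810 with a run and 0.01 for the 10329 without, and 48.3% and 40.4% were lower. The 13 genes with the run range from EIF3D at -1.66 to EIF3F at 0.38. EIF2A, EIF2D, EIF3M and EIF2S3B, which have it but were not printed at the opening, were all lower. Of the 2 genes printed for contrast, which lack it at their listed start, EIF3C was at -1.35 and EIF4EBP2 at 0.52. In a list of 9 factors known from the field for TOP mRNAs (EEF1A1, EEF1B2, EEF1D, EEF1G, EEF2, EIF3E, EIF3F, EIF3H and EIF4B), 6 were lower, 2 higher and 1 did not pass, with a median of -0.27, against -0.37 for the other 53. This list and the letters differ: EEF1G has no run at its listed start, and EEF1D, EIF3E and EIF3H have no entry.

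**Figure D4:**
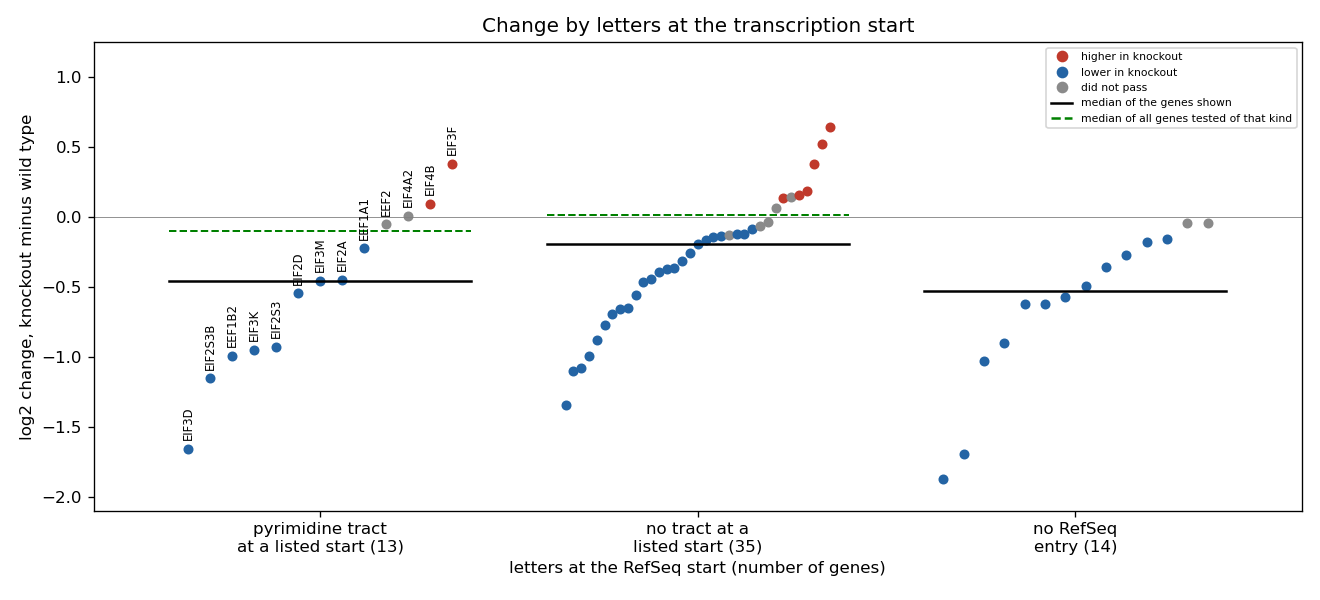
Log2 change, knockout minus wild type (y axis), of the 62 genes by whether RefSeq lists a start with the pyrimidine run; points are genes, black bars the medians of those shown and green dashed bars the medians of all tested genes of that kind. Genes with the run spread from EIF3D at -1.66 to EIF3F at 0.38.

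Of 44 regulators and partners of the factors, 16 were higher (36.4%), 20 lower (45.5%) and 8 did not pass, with a median of -0.02; these shares are near the 40.3% and 39.6% of all genes. The split depended on the scaling, and with equal library sums 8 were higher and 28 lower. DDIT3, a transcription factor of the stress response that follows eIF2α phosphorylation, was at 22.3, 21.7 and 21.2 scaled CPM in wild type and at 52.6, 52.3 and 54.2 in the knockout (log2 change 1.27, SE 0.044, adjusted p = 2.8e-12). DDIT3 lies on chromosome 12, whose tested genes had a median change of 0.33. EIF2AK3 (PERK), the eIF2α kinase of the endoplasmic reticulum, was at 23.4, 22.5 and 28.5 against 57.2, 54.6 and 58.6 (log2 change 1.19, SE 0.071, adjusted p = 1.3e-09). Neither gene's groups overlapped. EIF2AK4 (GCN2), the kinase that senses uncharged tRNA, was also higher (0.61), while ATF4, whose mRNA is translated when eIF2α is phosphorylated, was lower at the RNA level (-0.62). ATF4 lies on chromosome 22, and relative to that chromosome's median its change turned to 0.15 (adjusted p = 8.4e-05). EIF2AK4 and ATF4 were named after their values were seen.

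The enzymes that build diphthamide on eEF2 split: DPH1 was at 24.7, 23.0 and 23.6 scaled CPM against 43.4, 42.9 and 47.0 (log2 change 0.89, adjusted p = 7.5e-10), and DPH2 at 95.7, 99.9 and 102 against 31.2, 34.7 and 34.4 (log2 change -1.56, adjusted p = 4.9e-13). Their proteins form a heterodimer. RACK1, a protein of the small ribosomal subunit, was at 1166, 1196 and 1203 against 591, 582 and 588 (-1.02), and PDCD4, which blocks eIF4A, at 126, 133 and 132 against 75.3, 73.6 and 73.6 (-0.81). In each of these 4 genes the groups were apart.

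**Figure D5:**
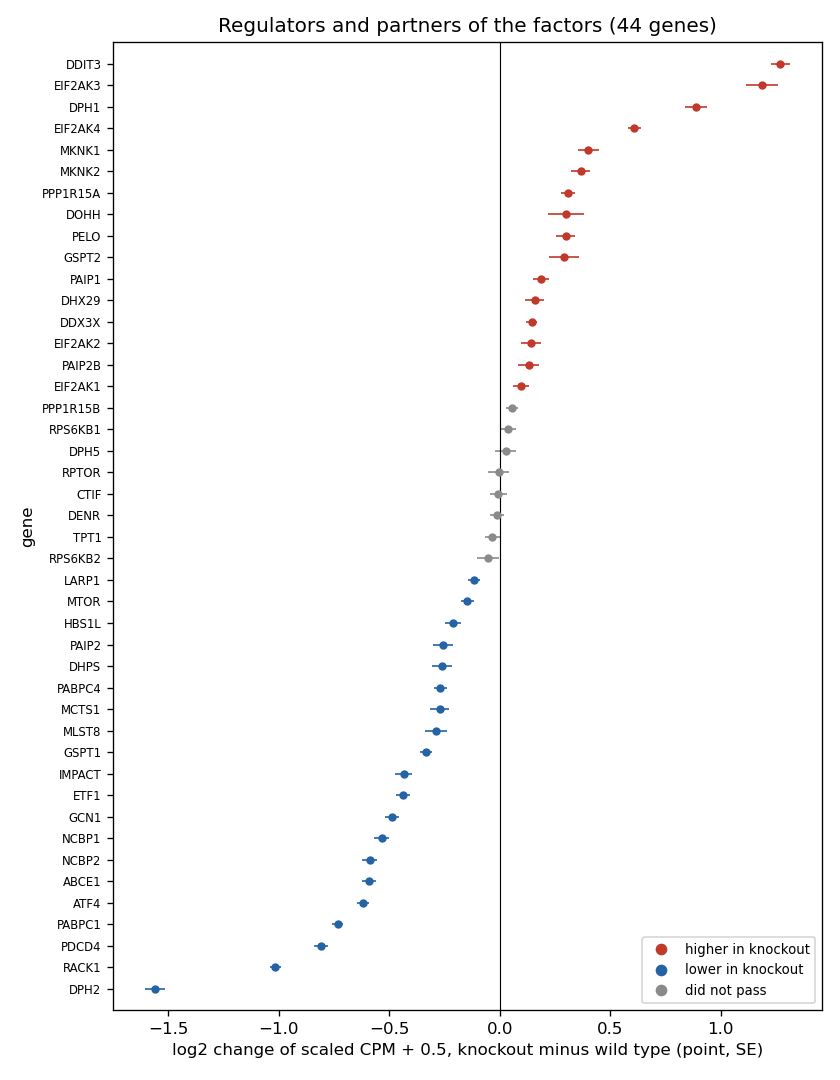
Log2 change of the 44 regulators and partners, knockout minus wild type (x axis); points are fitted changes and bars their SE over 3 libraries a group, coloured by call. The genes run from DPH2 at -1.56 to DDIT3 at 1.27, with 16 higher, 20 lower and 8 that did not pass.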

How the data were processed

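Untreated HepaRG cells gave 6 libraries, 3 wild-type and 3 labelled PXR knockout, prepared from total RNA by a kit for stranded mRNA and read as paired ends, per the labels' protocols. Tools listed in the submitters' processing notes are Bowtie2, FastQC, limma, edgeR and Trim Galore, with hg38 as the build; as to versions and annotation, nothing is given in the sources used here. The deposited table holds 16673 rows of linear, normalized signal under a name that says log2 CPM; values step in hundredths of a read, as estimated counts do after scaling by the authors, so no count test was run, and reads of near-identical genes are shared by estimation.

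Second copies of 14 pseudoautosomal genes were dropped, and 21 symbols turned into dates were restored; 16608 of 16659 identifiers matched GENCODE 29 on GRCh38. The values were tested as log2(scaled CPM + 0.5) with limma 3.58.1 in R 4.3.3 (mean-variance trend, two-sided, Benjamini-Hochberg over all genes, threshold 0.05), on the 16219 genes above 1 scaled CPM in at least 3 of 6 libraries. The design had allowed for log2 or linear values. Shares, sums and figures used Python 3.11.15, pandas 2.3.3, numpy 2.4.6 and matplotlib 3.10.9. Small RNA genes took 3.97% to 6.03% of the signal. No pair of replicates agreed within sampling noise: the mean chi-square per gene was 2.25 to 9.80. The median was 0.64 to 0.91, where sampling noise alone gives 0.455, so a typical gene was closer to it than the means. Each library was counted once, which does not show that they came from separate cultures. In a simulation over 16219 genes, only a small part of the genes was changed, and the spread beyond sampling noise was held fixed. The fit recovered 36% of 50 changes of 1.25-fold, 82% of 1.5-fold, 96% of 2-fold and 100% of 4-fold, with 11 false among 168 calls. In the data 79.9% of genes passed, so these rates need not hold there.

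The genes and lists were chosen with earlier results of these data known. Values per library are given for the up to 2 largest rises and falls of each role, the 10 factors of highest mean level, the paralog families, the factors on chromosome 22 and the 3 largest rises and falls among the 44 regulators. EIF5A2, listed as a relative of EIF5A, was not analysed here. Alternatives were another pseudocount, filter, scaling or variance model, a replicate block, each library left out, chromosome medians taken out, shares not per kilobase and, chosen after seeing the data, values summed with an overlapping or near-identical gene. The estimated reads set the counting precision; the SD over 3 libraries covers counting and library error together.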

Additional observations from a re-analysis of the deposited data

How the results depend on the processing

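Over 16 alternatives fitted to the whole table, sums with overlapping genes aside, 37 of the 45 factors called lower and 4 of the 8 called higher were tested in all and kept their call; EIF2S3B and EIF4EBP3 kept it in the 15 that tested them. Those called lower that lost it were EIF2S2, EIF4E2, EEF1A2 and EIF4ENIF1 with chromosome medians taken out, EIF3J there, without a variance trend and without wild-type or knockout library 3, and EIF1AX without a variance trend and without wild-type library 3 or knockout library 2. With equal library sums 4 factors and 8 regulators were higher and 28 regulators lower, and without small RNA genes as well 4, 8 and 28. The median change of the factors was -0.42 with quantile normalization, -0.49 with equal library sums, -0.51 with those sums without small RNA genes and -0.40 with chromosome medians taken out. Leaving out 1 library gave 8 to 9 factors higher and 43 to 46 lower, a median of -0.37 to -0.34, 13 to 16 regulators higher and 20 to 20 lower. It gave differences in share of -0.0011 to 0.047 points for EEF1A2 (the sign turned without wild-type library 2), -3.39 to -2.85 for EIF1B, -3.14 to -2.79 for EIF4A2, 0.966 to 1.15 for EIF4E3, 17.7 to 18.6 for EIF4EBP2 and 0.583 to 0.915 for EIF4G3.

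Signs turned for genes of small change. With quantile normalization EIF4A2 was at -0.0951 and EIF4B at -0.0594; with equal library sums EIF4A2 was at -0.128, EIF4B at -0.0432 and EIF4E at -0.0744; without small RNA genes as well EIF4A2 was at -0.146, EIF4B at -0.0616, EIF4E at -0.0927, EIF5A at -0.0180 and EIF2B3 at -0.0118. With chromosome medians taken out EIF4B was at -0.238, EEF1AKMT1 at 0.0282, EIF2B4 at 0.00023 and ATF4 at 0.15. Leaving out 1 library gave -0.0720 to 0.0119 for EIF1, -0.0024 to 0.0281 for EIF4A2 and -0.133 to 0.0416 for EEF1AKMT1, the sign turning in all 3 without wild-type library 1 and in EEF1AKMT1 also without knockout library 3. Summed with ANKHD1-EIF4EBP3, EIF4EBP3 was at 0.10. The cause was not tested.

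Replicate numbers did not pair the libraries: deviations of same-numbered libraries correlated at -0.02, -0.06 and 0.02. With the number as a replicate block, 45 factors were lower and 8 higher, as without it, and 12916 genes were called in all. With 3 libraries a group, small changes were often missed on simulated data in which few genes changed, unlike these data. Genes under 5 scaled CPM rest on few reads in the shallower wild-type libraries.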
